A study of Mus musculus with 21 samples.

Results

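The regions described here are stretches of the mouse autosomes that carried H3K9me2 and LaminB1 domains in fibro-adipogenic progenitors (FAPs) of both genotypes studied. A bin of 1 kb counted when it was covered by a deposited domain in each of 6 H3K9me2 libraries and each of 2 LaminB1 libraries, and touching bins were merged. This gave 275 regions and 59.0 Mb, against 1272 regions and 1248.3 Mb of autosome covered in at least 1 of the 8 domain libraries. The members were chosen by domain coverage in these 8 libraries, so domain coverage, domain scores and the lengths of the regions are given as a description and were not tested.

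Skeletal muscle holds FAPs among its connective tissue, where they multiply after injury and can form fibrous tissue or fat. The group called Prdm16 came from adult mice of genotype Prdm16Flox/Flox::PdgfrαCre-ERT/+, in which tamoxifen activates a Cre recombinase expressed from the Pdgfra locus, and the control group called WT from Prdm16Flox/Flox::Pdgfrα+/+ mice, which carry the floxed alleles without Cre. Cre can act in any cell that expresses Pdgfra. Per the labels, tamoxifen was injected on 5 days in a row, muscle was injured with cardiotoxin 7 days later, and cells sorted 5 days after injury were grown for 4 to 5 days, so all groups share tamoxifen, injury and culture. Each genotype had 3 H3K9me2 libraries and 1 LaminB1 library, and RNA was sequenced in 3 libraries labelled WT and 2 labelled Prdm16. The sample titles write LamininB1 where the antibody field writes LaminB1. Whether replicates came from separate animals, and whether animals were pooled, is not stated, and p-values therefore cover only variation among these libraries.

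H3K9me2 is a histone mark placed mainly by the enzymes EHMT1 and EHMT2 (also known as GLP and G9a) over broad stretches of silent chromatin. LaminB1 is a filament protein of the nuclear lamina, the mesh under the inner nuclear membrane, and chromatin that contacts it forms lamina-associated domains that are poor in genes and mostly silent. H3K9me2 is known to be frequent at the nuclear periphery, and PRDM16 is a zinc-finger protein that acts in fat and muscle lineage choice and belongs to a family with members that methylate H3K9.

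The RNA libraries held between 5839587 and 10657791 counts, and depth is unknown for the domain lists. Pdgfra, the receptor that marks FAPs, was at 491.3 to 939.7 CPM (counts per 1000000 counts of the library), and Ly6a, a mesenchymal progenitor marker, at 744.7 to 1684.1 CPM. The other FAP identity genes ranged from Dpp4, at 0.0 to 2.4 CPM, to Col1a1, at 1203.2 to 2213.7 CPM. Pi16 of that list fell to 2.92 CPM in WT replicate 3. The macrophage genes Adgre1 and C1qa had no count in any library, and Ptprc (CD45) reached at most 0.292 CPM. Other macrophage genes had low counts, with Cd68 at 2.91 to 4.4 CPM, Csf1r at 0.284 to 2.33 CPM and Lyz2 at 0.389 to 1.54 CPM. Prdm16 itself did not separate the groups, at 16.0, 13.3 and 5.74 CPM in WT against 10.8 and 14.7 CPM in Prdm16 by label (log2 fold change 0.13, SE 0.47, edgeR adjusted p = 0.9998). The labels do not name the floxed exons, so counts over the whole gene may not show the deletion. The p-values of the authors' deposited comparison table were matched within 1% for 15240 of 15240 genes when WT replicate 3 and Prdm16 replicate 2, as labelled, formed the group of 2, and for 179 genes (1.17%) as labelled. Xist, the RNA of the inactive X chromosome, had 15 counts in Prdm16 replicate 2 and 3483 to 4652 in the others. RNA results between genotypes are therefore given by label, and differences described for genes of the regions and sums over them are also given under the other grouping where their direction turned. The group of 2 was taken as Prdm16 in that grouping. Matching p-values cannot show which group the authors called Prdm16, so directions under it rest on that choice. For Prdm16 itself the log2 fold change was then -0.41 (SE 0.436, edgeR adjusted p = 0.82).

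The promoters of 8 genes of the regions are printed to show the range of sequence at the starts of genes whose RNA is described below. Each line holds 250 bases before the start that RefSeq (GRCm38.p6) gives, on the strand of the gene, with every CpG in capitals, and all 8 windows lie before the first annotated base of their gene. Kcnj6 (chr16:94997697-94997946, minus strand) is a CpG-rich promoter inside a region, with 26 CpG, and Ryr2 (chr13:12106946-12107195, minus strand), with 14 CpG, starts outside the regions that its body enters. Dpp6 (chr5:26817107-26817356, plus strand) starts inside the longest region, and Ces2e (chr8:104926010-104926259, plus strand) belongs to a carboxylesterase cluster with low counts. Klk1b9 (chr7:43975811-43976060, plus strand) and Klk1b22 (chr7:44112423-44112672, plus strand) come from a kallikrein cluster, and Olfr325 (chr11:58580587-58580836, plus strand) and Olfr331 (chr11:58502573-58502822, minus strand) from an olfactory receptor cluster, to show how alike such copies are.
Kcnj6: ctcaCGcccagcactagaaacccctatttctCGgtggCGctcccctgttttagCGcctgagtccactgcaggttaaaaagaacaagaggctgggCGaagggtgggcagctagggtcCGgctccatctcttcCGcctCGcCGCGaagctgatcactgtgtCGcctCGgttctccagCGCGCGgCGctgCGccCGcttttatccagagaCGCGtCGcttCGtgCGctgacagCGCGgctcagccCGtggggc
Ryr2: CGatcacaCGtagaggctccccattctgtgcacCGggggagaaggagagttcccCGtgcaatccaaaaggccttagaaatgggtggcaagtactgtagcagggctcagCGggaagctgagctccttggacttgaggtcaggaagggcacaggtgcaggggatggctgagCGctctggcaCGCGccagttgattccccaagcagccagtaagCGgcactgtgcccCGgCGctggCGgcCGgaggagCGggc
Dpp6: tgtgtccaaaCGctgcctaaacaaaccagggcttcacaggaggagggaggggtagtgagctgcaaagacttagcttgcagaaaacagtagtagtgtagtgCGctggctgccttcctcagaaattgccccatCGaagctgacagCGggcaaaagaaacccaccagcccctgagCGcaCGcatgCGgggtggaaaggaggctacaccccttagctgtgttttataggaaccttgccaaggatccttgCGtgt
Ces2e: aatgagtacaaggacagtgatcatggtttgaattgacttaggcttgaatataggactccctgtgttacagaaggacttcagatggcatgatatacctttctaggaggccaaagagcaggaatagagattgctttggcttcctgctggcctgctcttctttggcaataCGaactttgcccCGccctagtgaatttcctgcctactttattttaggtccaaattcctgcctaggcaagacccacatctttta
Klk1b9: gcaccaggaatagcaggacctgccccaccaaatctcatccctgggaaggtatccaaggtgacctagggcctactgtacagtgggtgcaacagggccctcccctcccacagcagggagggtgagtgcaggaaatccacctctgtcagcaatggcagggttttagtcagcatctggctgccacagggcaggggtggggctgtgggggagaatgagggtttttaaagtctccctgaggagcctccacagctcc
Klk1b22: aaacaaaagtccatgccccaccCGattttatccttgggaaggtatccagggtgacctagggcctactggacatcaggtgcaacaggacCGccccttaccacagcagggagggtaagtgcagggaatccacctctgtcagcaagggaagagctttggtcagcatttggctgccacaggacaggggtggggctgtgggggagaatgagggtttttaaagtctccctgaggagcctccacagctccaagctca
Olfr325: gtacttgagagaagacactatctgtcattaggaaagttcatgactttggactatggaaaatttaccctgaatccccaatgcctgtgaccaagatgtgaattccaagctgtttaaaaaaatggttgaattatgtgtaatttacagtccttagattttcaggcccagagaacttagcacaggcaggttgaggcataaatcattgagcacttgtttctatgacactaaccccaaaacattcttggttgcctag
Olfr331: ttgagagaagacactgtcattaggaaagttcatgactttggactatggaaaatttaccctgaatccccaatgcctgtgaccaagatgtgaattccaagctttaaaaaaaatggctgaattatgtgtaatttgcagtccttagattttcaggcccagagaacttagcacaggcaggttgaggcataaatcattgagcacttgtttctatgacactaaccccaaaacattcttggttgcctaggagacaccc

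The regions were a minor share of either mark. They took 20.3% of the 290.9 Mb with H3K9me2 in all 6 libraries and 19.7% of the 299.1 Mb with LaminB1 in both libraries, while these covered 12% and 12.3% of the autosomes between their outermost protein-coding genes. The regions themselves made up 2.43% of that span. Of the 579 stretches with H3K9me2 in all 6 libraries, 206 held a member, and of the 886 stretches with LaminB1 in both, 268 did. The remaining H3K9me2 common to all 6 libraries fell into 132.1 Mb with LaminB1 in neither genotype, 98.6 Mb with LaminB1 in WT alone and 1.22 Mb with LaminB1 in Prdm16 alone. A further 117.6 Mb carried LaminB1 in both genotypes and H3K9me2 in no library.

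The median region was 172 kb long, with the middle 50% of lengths between 112 and 274.5 kb. The range ran from 1 to 1340 kb, with 15 regions of at least 500 kb and 5 under 12 kb. Chromosome 11 held more of this length than any other, with 26 regions and 6.57 Mb that made up 37.2% of its common H3K9me2 and 49.4% of its shared LaminB1. Chromosome 9 followed with 21 regions and 5.05 Mb, which were 31.8% and 28.5% of its common length of the marks. On chromosome 16 the regions took 43.4% of shared LaminB1 but 24.3% of common H3K9me2. Chromosome 10 had the least, with 3 regions and 0.496 Mb, 5.81% of its common H3K9me2 and 6.46% of its shared LaminB1. The marks thus met over unequal shares of different chromosomes, with chromosomes 10 and 11 at the ends of the order for both.

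**Figure D1:**
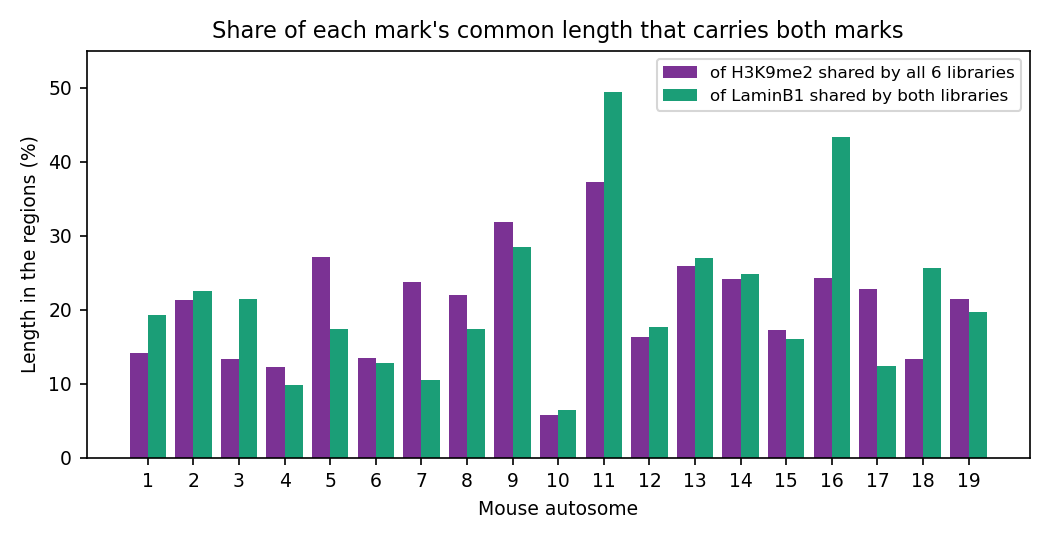
The bars give, for each autosome, the percentage of the length with H3K9me2 in all 6 libraries (purple) and of the length with LaminB1 in both libraries (green) that lies in the regions. Chromosome 11 stands highest on both scales, at 37.2% and 49.4%, and chromosome 10 lowest, at 5.81% and 6.46%.

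The 8 longest regions held few genes, and those with names are mostly large neuronal genes. The longest, chr5:26280001-27620000 (1340 kb), covers 88.2% of Dpp6, an auxiliary subunit of neuronal A-type potassium channels, and holds Speer4b, of a rodent family expressed in testis. The next, chr11:36132001-37254000 (1122 kb), lies almost wholly in Tenm2, a teneurin adhesion protein of neurons with 89.8% of its body in the regions. The region chr16:5328001-6436000 (1108 kb) held no gene by the rule used here, which asks for 0.5 of the gene body, but it contains the annotated start of Rbfox1, a neuronal splicing regulator with 43.2% of its body in the regions. The region chr9:101696001-102264000 (568 kb) covers most of Ephb1, a receptor of the ephrin system for axon guidance with 79.0% of its body inside. The regions chr9:46436001-47268000 (832 kb) and chr7:124712001-125376000 (664 kb) each held 1 gene known by a provisional symbol, and chr19:25828001-26452000 (624 kb) held none.

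The sixth longest, chr14:6957001-7587000 (630 kb), differed from these in having 13 predicted protein-coding genes and the highest domain scores. The domain around it had the highest score of its list in WT H3K9me2 replicate 1 (510.5), Prdm16 H3K9me2 replicate 1 (405.4) and both LaminB1 lists (828.6 in WT and 391.2 in Prdm16). It ranked 2 and 4 in WT replicates 2 and 3, in a domain of 4623 and 4746 kb. In Prdm16 replicates 2 and 3 the region lay in shorter domains of 1773 and 792 kb with scores of 20.2 and 18.3, at ranks 532 of 934 and 520 of 894. The score is the authors' own value per domain, is used only within a list, and how it was made is not known. By contrast, the domain around the Dpp6 region was between 1878 and 1890 kb long in all 6 H3K9me2 libraries.

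Over all regions, the domains that contained them were longer and ranked higher than others of the same list. In the 6 H3K9me2 lists the holding domains had median rank percentiles of 70.9 to 87.4 by score and median lengths of 810.0 to 1041.0 kb, against 264.0 to 411.0 kb for the other domains. In the WT LaminB1 list the percentile was 73.3, with lengths of 672.0 against 296.0 kb. In the Prdm16 LaminB1 list it was 54.3, with 216.0 against 188.0 kb, so holding domains there stood close to the rest. Long domains are more likely to contain a region, and no test was made of these values.

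The extent of the regions was set mostly by the Prdm16 LaminB1 list, which covered 305.2 Mb of the autosomes against 646.5 Mb in WT. Bins covered in exactly 7 of the 8 libraries added up to 125.9 Mb, and 98.6 Mb of these (78.3%) lacked only Prdm16 LaminB1. Another 9.45 Mb lacked only Prdm16 H3K9me2 replicate 2 and 9.04 Mb only replicate 3, while 1.22 Mb lacked only WT LaminB1 and 0.003 Mb only WT H3K9me2 replicate 1. Each genotype had 1 LaminB1 library, so the difference in LaminB1 length has no replicate check, and genotype and library cannot be told apart.

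The edges of the regions showed the same order. At 429 of 550 edges (78.0%) H3K9me2 ran on in all 6 libraries, and at 0 edges did it end in all 6 at once. The Prdm16 LaminB1 domain ended at 406 edges (73.8%) and the WT LaminB1 domain at 31 (5.64%). H3K9me2 ended in at least 1 library while LaminB1 ran on in both at 120 edges (21.8%). Of the 275 regions, 170 (61.8%) had both edges set by LaminB1 alone, 16 (5.82%) had H3K9me2 ending at both edges, and 89 (32.4%) had an edge of each kind. At 100 kb outside the edge, between 68.7% and 82.5% of edges still lay in H3K9me2 of a given library and 68.5% in WT LaminB1, against 22.5% in Prdm16 LaminB1. The shared regions were thus mostly interior pieces of wider H3K9me2 and WT LaminB1 domains.

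**Figure D2:**
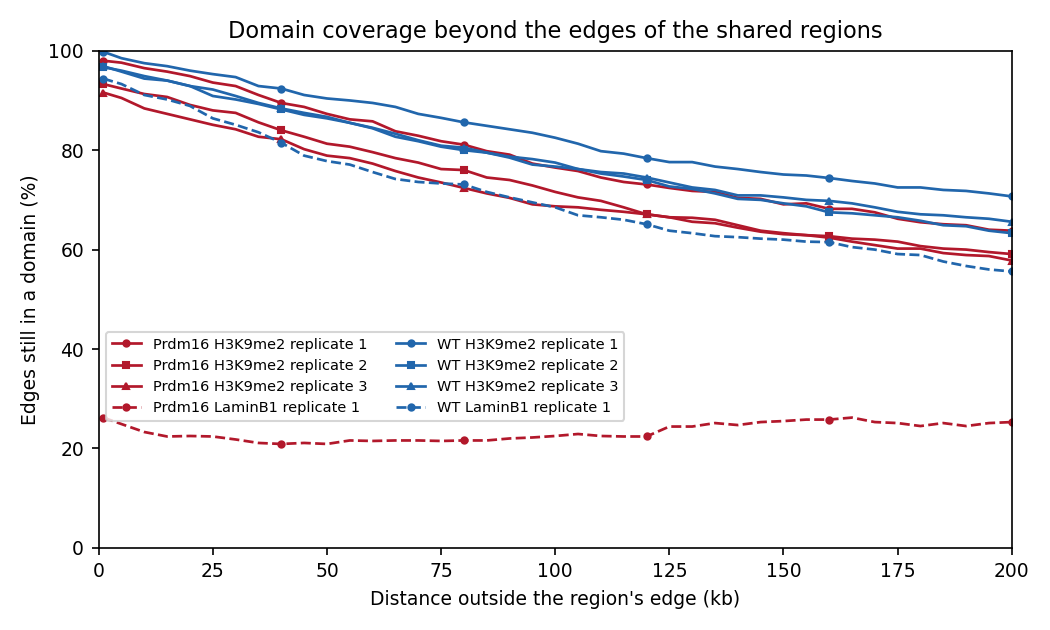
The lines give the percentage of the 550 region edges that still lie in a domain at each distance outside the edge (x axis, 1 to 200 kb), for the 8 domain libraries, with WT in blue, Prdm16 in red and LaminB1 dashed. At 200 kb the H3K9me2 libraries remain between 57.8% and 70.7%, WT LaminB1 at 55.6% and Prdm16 LaminB1 at 25.3%.

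The regions were poor in genes, and many of the genes they held were very long. Counting genes with 0.5 or more of their body inside, they held 149 protein-coding genes, or 2.53 per Mb, against 8.51 per Mb over the autosomes. The density was similar in common H3K9me2 with no LaminB1 (1.89 per Mb) and with LaminB1 in WT alone (2.07 per Mb), but was 9.62 per Mb in LaminB1 without H3K9me2. Of the 149 genes, 32 (21.5%) were at least 200 kb long, against 4.57% of all autosomal protein-coding genes, 18.8% and 19.1% in those other H3K9me2 classes and 0.795% in LaminB1 without H3K9me2. No protein-coding gene met the rule in 191 regions (69.5%), and 131 regions touched none at all.

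Gene-rich regions were few but held much of the gene content. In 12 regions with 3 or more protein-coding genes lay 77 genes, 51.7% of the total, and most of these are tandem families (described here after their names were seen). The region chr7:43964001-44180000 held 8 Klk1b genes, which encode tissue kallikreins, serine proteases secreted by the salivary gland. The region chr11:58428001-58600000 held 9 olfactory receptor genes, and chr16:36248001-36464000 held Stfa1, Stfa2, Stfa3 and 3 Cstdc genes, which encode stefins and related inhibitors of cysteine proteases. The region chr8:104868001-105048000 held the carboxylesterases Ces2e, Ces2f, Ces2g and Ces2h, and chr15:82464001-82780000 the cytochromes Cyp2d12, Cyp2d34 and Cyp2d40, both families of drug and lipid metabolism in liver and gut. Smaller pairs were Il22 and Iltifb, genes of the interleukin 22 cytokine (chr10:118204001-118338000), and C8a and C8b, chains of the terminal complement component (chr4:104672001-104860000).

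Part of the immunoglobulin heavy chain locus also lay inside a region. In chr12:113292001-113481000 (189 kb) were 26 annotated segments, namely the constant genes Ighg2b, Ighg1, Ighg3, Ighd and Ighm, 4 joining segments, 8 diversity segments and 9 diversity pseudogenes. These genes are rearranged and transcribed in B cells. Over the 26 segments the libraries labelled WT held 0, 4 and 0 counts and those labelled Prdm16 1 and 1, all from constant genes.

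Gene families and pathways had few members in the regions, beside a background of 0.721% of 20665 autosomal protein-coding genes. Glutamate receptors, the ion channels and receptors of excitatory synapses, had 3 of 26 genes inside (11.5%), namely the NMDA receptor subunits Grin2a and Grin2b and the delta receptor Grid1. Neuronal adhesion and synapse genes had 2 of 35 (5.71%), Dpp6 and Tenm2, while 10 of 35 overlapped a region at any length. Potassium channels had 2 of 92 (Kcnj6 and Kcnq3), and axon guidance genes of the semaphorin, ephrin and slit systems 2 of 60 (Ephb1 and Unc5d). Synaptic leucine-rich repeat adhesion genes had 1 of 31 (Lrfn2), and sodium and calcium channel subunits 1 of 39 (Cacna1e). Some neuronal and adhesion lists had none inside, with 0 of 16 GABA receptors, 0 of 13 contactins and their relatives, 0 of 67 protocadherins and 0 of 23 classical cadherins. At any length, a region was overlapped by 1 GABA receptor, 3 contactins or relatives, 0 protocadherins and 1 classical cadherin. Cytochromes P450 had 3 of 98 and serpins, which inhibit serine proteases, 2 of 62 (Serpinb13 and Serpinb9h), while UDP glucuronosyltransferases had 0 of 22 and keratins and keratin-associated proteins 0 of 109. These are counts of few genes, chosen with earlier results of these data known, and carry no test.

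Of 1104 autosomal olfactory receptor genes 9 were in the regions (0.815%, near the background), all in the chromosome 11 cluster, while 341 were in LaminB1 without H3K9me2. Of 352 vomeronasal receptor genes, which serve pheromone detection, 1 (Vmn2r7) was in the regions, a lower share than the background, and 215 were in LaminB1 without H3K9me2. The 388 Zfp zinc finger genes had 0 inside, as did the lists of FAP identity genes (11), satellite cell and myoblast markers (7), myogenic regulators and sarcomere genes (32), adipogenic genes (21) and the enzymes and lamina proteins behind the marks (30 autosomal genes). The latter were expressed: Ehmt1 was at 89.4 to 124.8 CPM, Ehmt2 at 38.6 to 65.4 CPM, Lmnb1, which encodes LaminB1, at 9.94 to 35.8 CPM and Lmna at 1127.4 to 1717.5 CPM. Of these 30 genes, 0 passed the edgeR test between labelled genotypes at an adjusted or an unadjusted p under 0.05, and their median log2 fold change was 0.05. Over all 15240 genes tested, 0% passed at the adjusted and 2.47% at the unadjusted level, so a count of 0 among 30 is near the background.

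The upstream windows of the genes in the regions had few CpG. A promoter was found for 124 of the 149 genes, and in 41 of these (33.1%) the window overlaps the annotated gene body, where the start in the promoter table lies within the gene as annotated. The 124 windows had a median of 2 CpG and 49.2% G+C in 250 bases, against 10 CpG and 55.6% over 16457 autosomal protein-coding genes. The medians were 3 CpG in H3K9me2 with no LaminB1, 2 in H3K9me2 with LaminB1 in WT alone, and 1 in LaminB1 without H3K9me2, where G+C was 37.6%. At least 10 CpG were present in 24 windows (19.4%), against 51.8% of all and 19.1% in H3K9me2 with LaminB1 in WT alone. The motif TATAAA, searched on both strands without regard to other motifs, occurred in 7 windows (5.65%), against 12.5% of all. Its share was 25.4% in H3K9me2 with no LaminB1, 12.7% in H3K9me2 with LaminB1 in WT alone and 39.4% in LaminB1 without H3K9me2. Windows of tandem copies can be alike, so the 124 are not all independent.

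**Figure D3:**
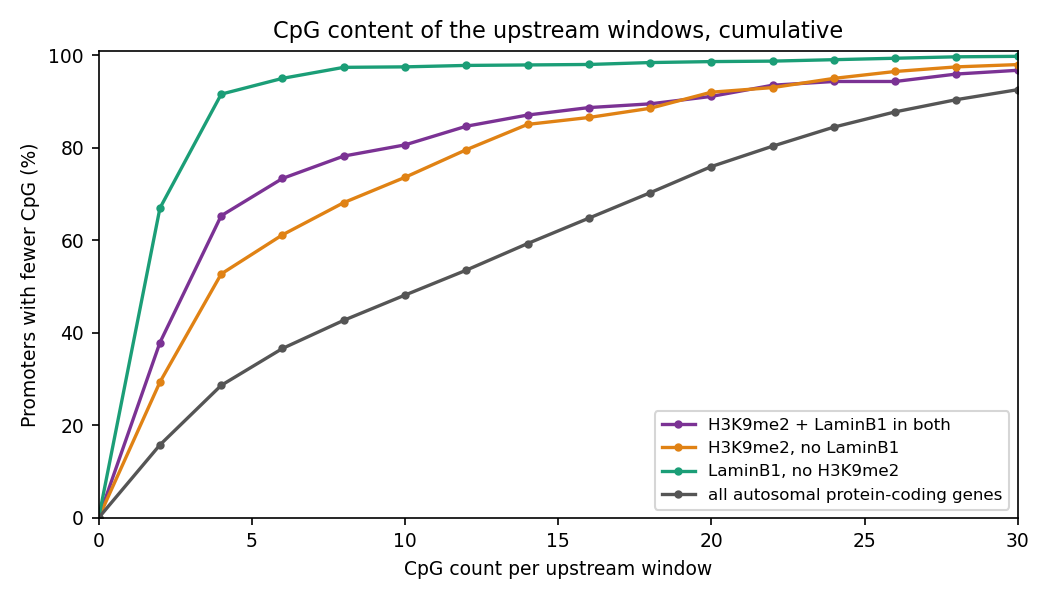
The lines give the cumulative percentage of promoters with fewer than the number of CpG on the x axis in the 250 upstream bases, for genes of the regions (purple), of H3K9me2 with no LaminB1 (orange), of LaminB1 without H3K9me2 (green) and for all autosomal protein-coding genes (grey). The purple line lies between green and grey, with medians of 2, 1 and 10 CpG in that order.

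Tandem genes of the regions had related promoters to different degrees. The 8 Klk1b windows shared 54.5% to 89.7% of aligned bases (median 77.3%) and held 0 to 3 CpG, with Klk1b9 and Klk1b22, printed above, at 83.3%. The 3 Stfa windows shared 80.4% to 83.5%. The 4 Ces2 windows shared only 46.8% to 55.7%. The olfactory cluster had a median of 51.3%, but Olfr325 and Olfr331 shared 91.9% and had 0 CpG each. Reads of such copies may be split or dropped by the counting, so the counts of these families are uncertain.

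RNA from the genes of the regions was close to absent in FAPs of both groups. In bulk libraries, fewer cells with a transcript and less of it per cell cannot be told apart. Of the 149 genes, 141 were in the count table, and 75 of these (53.2%) had no count in any of the 5 libraries, against 17.4% of all autosomal protein-coding genes. Of the 75, 46 lay in the 12 regions with 3 or more protein-coding genes, which had 70 genes in the count table. Most of those genes are tandem families, whose counts are uncertain. At least 1 count in every library was found for 10 genes (7.09%), against 64.3% of all. The summed level of the 141 genes was 10.8, 12.2 and 12.1 CPM in WT replicates 1 to 3 against 9.11 and 13.5 CPM in Prdm16 replicates 1 and 2. The groups overlapped, with the lowest and the highest sum both in libraries labelled Prdm16.

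At a level of 1 CPM, between 0.709% and 2.13% of the 141 genes were expressed in a library (1 to 3 genes). In H3K9me2 with no LaminB1 the share was 15.9% to 19.5%, and over all autosomal protein-coding genes 58.4% to 59.5%. The share in the regions was lower than with no LaminB1 in 5 of 5 libraries, by 16.2 percentage points on average (13.7 to 17.4; exact sign-flip test over libraries, two-sided p = 0.063, the smallest it can give, adjusted p = 0.0833 over 4 comparisons). Against H3K9me2 with LaminB1 in WT alone, where 2.51% to 5.53% were expressed, the mean difference was -2.26 points and again lower in 5 of 5 libraries (exact p = 0.063, adjusted p = 0.0833). Against LaminB1 without H3K9me2, at 1.54% to 2.4%, it was -0.378 points and lower in 4 of 5 (exact p = 0.25). With 5 libraries no such test can pass 0.05. All 5 libraries score the same genes, so these p-values do not cover variation among genes. CPM is not corrected for gene length, and the genes differ in it, with medians of 19.8 kb in the regions, 23.0 kb in H3K9me2 with no LaminB1 and 1.97 kb in LaminB1 without H3K9me2.

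**Figure D4:**
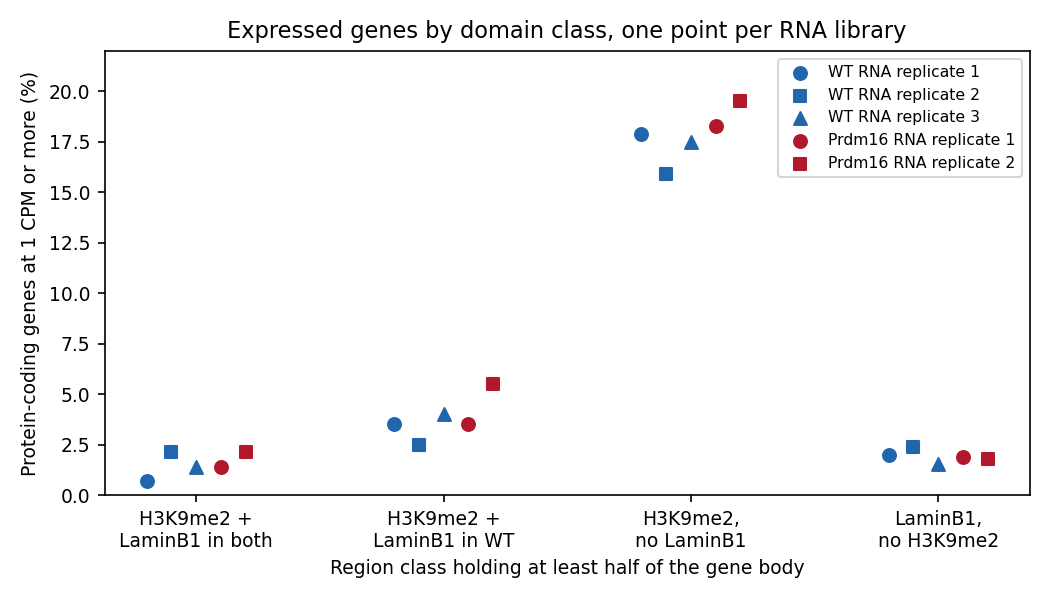
The points give the percentage of protein-coding genes at 1 CPM or more in each of the 5 RNA libraries (WT blue, Prdm16 red) for 4 classes of domain, left to right as labelled on the x axis. The points of the regions lie between 0.709% and 2.13%, near those of LaminB1 without H3K9me2 and below the 15.9% to 19.5% of H3K9me2 with no LaminB1.

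Fewer genes were at 1 CPM where more of the gene lay inside, a description that was not tested. Of 96 genes with their whole body inside, 0 to 2 were at 1 CPM in a library (at most 2.08%), and of 45 with at least 0.5 but less than the whole inside, 1 to 3 (2.22% to 6.67%). Of 72 genes with under 0.5 inside, 7 to 12 were (9.72% to 16.7%). Most of these last genes started outside the regions (66 of 72), and 5 to 10 of the 66 were at 1 CPM (7.58% to 15.2%). Of the 6 that started inside, 1 to 2 were (16.7% to 33.3%). CPM is not corrected for gene length, which was not compared between these sets. Of the 72 genes, 10 had a mean of at least 1 CPM. They included Negr1, a neuronal adhesion protein with 16.0% of its body inside, at 6.13 to 18.6 CPM, and Etl4 with 12.4% inside, at 8.73 to 13.3 CPM. Rbfox1, which starts inside the 1108 kb region, was at 7.41, 3.26 and 2.82 CPM in WT against 7.81 and 3.77 CPM in Prdm16.

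Position of the start and CpG content can be read together for the genes inside. Of 15 genes with at least 10 CpG and a start inside a region, 8 (53.3%) had no count in any library and the highest mean was 0.195 CPM. These 15 include Hs3st4, a heparan sulfate sulfotransferase with 43 CpG, the most in the regions, and no count, Kcnj6, a G-protein-gated potassium channel, and Tox3, a chromatin-binding factor. The windows of Hs3st4 and Tox3 overlap the annotated gene body, and that of Kcnj6 does not. Most of the 15, with the gene at 0.195 CPM among them, are predicted genes of chromosome 14 known by Gm symbols. If these are copies of one another, their reads may be split or dropped by the counting, so the 15 are not independent examples. Of 93 with fewer CpG and a start inside, 87 were in the count table and 56 (64.4%) had no count. The 9 CpG-rich windows outside the regions belong to genes whose bodies reach in, among them Clstn2 and Ryr2, and the highest mean there was 2.02 CPM. The neighbourhood was quiet as well: the nearest protein-coding gene with a mean of at least 1 CPM lay a median of 197.4 kb away, against 71.1 kb for H3K9me2 with no LaminB1, 146.1 kb for H3K9me2 with LaminB1 in WT alone and 199.3 kb for LaminB1 without H3K9me2. Only 14 of the 275 regions (5.09%) touched such a gene.

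The genes with the highest mean CPM were long neuronal and calcium-release genes and carboxylesterases. Clstn2 encodes calsyntenin 2, a synaptic cadherin-like protein, and has 69.9% of its 589.0 kb body in the regions. It was at 3.0, 2.41 and 0.194 CPM in WT replicates 1 to 3 (32, 17 and 2 counts) and at 1.07 and 3.42 CPM in Prdm16 replicates 1 and 2 (9 and 20 counts). WT replicate 3 was low and the groups overlapped. Dpp6 was at 0.188, 0.142 and 1.85 CPM in WT and 0.592 and 1.71 CPM in Prdm16, with WT replicate 3 high. Grin2a was at 0.0, 0.284 and 0.778 CPM in WT and 0.71 and 2.23 CPM in Prdm16, with 0 to 13 counts per library. These 3 genes varied widely within a group, and 3 counts, the limit that a count of 0 allows, correspond to 0.281 to 0.514 CPM in these libraries.

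Ryr3 and Ryr2 encode ryanodine receptors, calcium-release channels of the sarcoplasmic reticulum best known in muscle and brain. Ryr3 was at 0.469, 0.709 and 1.46 CPM in WT and 1.18 and 0.514 CPM in Prdm16, and the groups overlapped. Ryr2 was at 0.469, 0.284 and 0.583 CPM in WT and 0.118 and 0.171 CPM in Prdm16, from 5, 2 and 6 against 1 and 1 counts. The carboxylesterase Ces2g was the steadiest, at 0.751, 1.28 and 0.875 CPM in WT and 0.947 and 0.685 CPM in Prdm16. Its neighbour Ces2e was at 0.751, 1.42 and 0.486 CPM in WT and 0.473 and 0.342 CPM in Prdm16. Of the 12 named genes with the highest mean CPM, Ryr2 and Ces2e had groups that did not overlap, 2 of 12, while 17% of the 15240 genes tested did, and both rest on few counts. Under the authors' grouping, with the pair taken as Prdm16, the direction turned for 5 of the 12 (Clstn2, Ryr3, Ryr2, Ptger3 and Glb1l2). Ryr2 then had means of 0.377 CPM in the pair and 0.29 CPM in the other 3 libraries, with overlap, and the groups of Ces2e overlapped too. The others among the 12 were Dnah9 (an axonemal dynein chain), St18 (a zinc-finger factor), Ptger3 (a prostaglandin E2 receptor), Glb1l2 (a galactosidase-like protein) and B3gat1 (a glucuronyltransferase of neural cells), with means of 0.235 to 0.425 CPM. Groups that did not overlap under the authors' grouping were those of Dpp6, Grin2a and B3gat1, 3 of the 12. Grin2a had means of 1.5 CPM in the pair and 0.331 CPM in the other libraries, and B3gat1 of 0.0 and 0.392 CPM. The share of all genes is not given for that grouping, and these genes too rest on few counts.

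**Figure D5:**
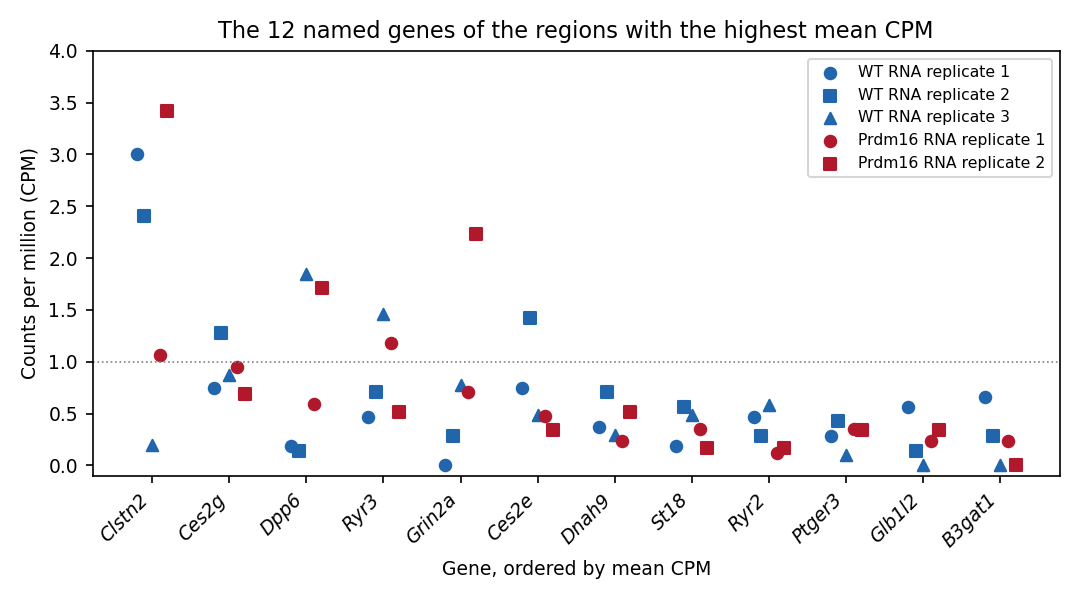
The points give the CPM of each of the 5 RNA libraries (WT blue, Prdm16 red) for the 12 named genes of the regions with the highest mean CPM, and the dotted line marks 1 CPM. Clstn2 reaches 3.42 CPM and has its lowest point at 0.194 CPM in WT replicate 3, and the last 6 genes stay under 1 CPM in every library.

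Tandem families inside the regions were at or near 0. The 8 Klk1b genes had 0 counts in total over the 5 libraries, as did Stfa1, Stfa2 and Stfa3, while the 9 olfactory receptor genes had 1 and the 3 Cyp2d genes 1. The 4 Ces2 genes had 69 counts, 16, 19 and 14 in WT and 12 and 8 in Prdm16, nearly all from Ces2g and Ces2e. In the 630 kb region on chromosome 14, 11 of 13 predicted genes were in the count table and 9 of them had no count. The cytokine gene Il22 had 1 count, and Iltifb, C8a and C8b had 0.

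No gene of the regions passed the test between the labelled genotypes, and few could be tested. Only 2 of the 141 genes (1.42%) passed the expression filter, against 59.5% of all autosomal protein-coding genes. In edgeR's quasi-likelihood test, 0 of these 2 had an adjusted p under 0.05, beside 0% of all 15240 genes tested, and 0 had an unadjusted p under 0.05, beside 2.47%. Clstn2 had a log2 fold change of 0.25 (SE 1.0, edgeR adjusted p = 0.9998) and Dpp6 of 0.61 (SE 1.1, adjusted p = 0.9998). Under the authors' grouping they were -0.37 for Clstn2 (SE 0.973, edgeR adjusted p = 0.947) and 2.47 for Dpp6 (SE 0.732, unadjusted p = 0.00697, adjusted p = 0.232), whose groups then did not overlap. DESeq2 called 0 genes of the regions and 1 gene over all. With errors of about 1 on the log2 scale, a rise or a fall of either gene by that much was not detectable at this depth.

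Values over the regions as a whole overlapped between the labelled genotypes for the share at 1 CPM and summed CPM, but not for the share of genes with a count. The share of genes at 1 CPM was 1.42% ± 0.711 (SD, n = 3) in the libraries labelled WT and 1.77% ± 0.502 (SD, n = 2) in those labelled Prdm16, a difference of 0.355 percentage points (exact permutation test, two-sided p = 0.7, where 3 against 2 libraries cannot go below 0.1). Summed CPM was 11.7 ± 0.781 (SD, n = 3) and 11.3 ± 3.1 (SD, n = 2), a difference of -0.359 CPM (exact permutation p = 0.8). With the libraries grouped as in the authors' deposited table that difference was 2.09 CPM (exact permutation p = 0.3), and without Prdm16 replicate 1 it was 1.85 CPM, so its sign rests on the grouping. The share of genes with at least 1 count was 24.1%, 22% and 26.2% in WT and 18.4% and 17.0% in Prdm16, a difference of -6.38 points in groups that did not overlap (exact permutation p = 0.1, the smallest possible). With the libraries grouped as in the authors' table it was 0.118 points, with means of 21.6% and 21.5% (exact permutation p = 1.0), so this difference too rests on the labels. Over all autosomal protein-coding genes that share was 72.7% and 71.6% on average, and total counts ran from 5839587 to 10657791 per library, whose part in the difference was not tested. The summed level of satellite cell and myoblast markers ran from 78.4 to 250 CPM in WT, highest in replicate 3, and from 169.6 to 205.0 CPM in Prdm16. That of myogenic regulators and sarcomere genes ran from 480.7 to 1586.6 CPM in WT and from 1655.3 to 1684.2 CPM in Prdm16. Of the 28 tested genes of that list 27 were positive, beside 50.1% of all 15240 genes tested. The list's median log2 fold change was 0.91. By edgeR 0 were called, beside 0% of all, and 11 had an unadjusted p under 0.05, beside 2.47%. Values of both lists are by label only and are not given under the authors' grouping. The part of either list in the values over the regions was not tested.

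Genes that only reach into the regions did not pass the test either, and those named here were chosen after their values were seen. Grm7, a metabotropic glutamate receptor with 14.8% of its body inside, was at 2.44, 0.992 and 1.26 CPM in WT and 6.15 and 3.6 CPM in Prdm16, groups that did not overlap. Its log2 fold change was 1.62 (SE 0.56, edgeR unadjusted p = 0.0193, adjusted p = 0.9998). Under the authors' grouping its groups overlapped, at means of 2.43 and 3.2 CPM, and the log2 fold change was -0.44 (SE 0.777, edgeR adjusted p = 0.91). Gria1, an AMPA receptor subunit with 0.7% inside, was at 5.63, 1.84 and 1.56 CPM in WT and 10.9 and 4.62 CPM in Prdm16, and its groups overlapped, with means of 3.09 and 6.12 CPM for the pair and the other 3 under the authors' grouping. Rbfox1 had a log2 fold change of 0.36 (SE 0.57, edgeR adjusted p = 0.9998), and of -0.93 (SE 0.495, adjusted p = 0.595) under the authors' grouping.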

How the data were processed

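SMART-seq2 was used on polyadenylated RNA, per the labels, so reads carry no molecular identifiers. The submitters' processing notes list DESeq2 1.20, featureCounts, STAR 2.7 and Bowtie 1.2.2 as tools, and GRCm38, mm10 and dm6 as builds, without roles. The authors deposited raw counts per gene, and their comparison table gives the authors' p-values. Each deposited domain list holds positions and the authors' score per domain, made by a caller that the sources do not name. The normalized table and the 8 input samples were not used here. Domain boundaries were multiples of 3 kb (H3K9me2) or 4 kb (LaminB1), so no bin of 1 kb was covered in part.

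Classes of bins were formed with pandas 2.3.3, scipy 1.17.1 and numpy 2.4.6 under Python 3.11.15. Plots used matplotlib 3.10.9. Genes were placed by RefSeq GRCm38.p6 and belonged to a class with a share of at least 0.5 of the body in it. CPM is the raw count per 1000000 counts of the library. Counts were tested with edgeR 4.0.16 in R 4.3.3 (default expression filter, trimmed mean of M-values, robust quasi-likelihood test, two-sided, Benjamini-Hochberg adjustment over all 15240 genes, threshold 0.05) and with DESeq2 1.42.0 as an alternative. The edgeR step was tested on simulated data. Single values per library were compared by exact permutation or sign flips.

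The members and gene lists were chosen with earlier results of these data known. Named were the 8 longest regions, the 12 genes with the highest mean CPM and up to 4 genes per list. Symbols made of Gm and digits, or ending in Rik, were counted but not named, and others are said to be chosen after their values were seen. Replicate numbers were not used to pair the RNA libraries. Deviations of same-numbered libraries from the means of the labelled groups correlated at 0.209 and -0.202. The deviations of the 2 Prdm16 libraries mirror each other and the labels are in doubt, so these values cannot decide whether libraries are paired. The sequence of the regions was not analysed here.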

Additional observations from a re-analysis of the deposited data

How the results depend on the processing

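The size of the regions rested on the Prdm16 LaminB1 list. Leaving out each of the 8 domain libraries in turn gave 59.0 to 157.6 Mb, 275 to 430 regions and 149 to 370 protein-coding genes, with the highest value of each without Prdm16 LaminB1. Domains with a score of at least the median of their list gave 29.1 Mb, and those of at least the lower quartile 45 Mb. The share of genes at 1 CPM, lower in the regions than in H3K9me2 with no LaminB1, kept its direction under all 10 alternatives, between -20.6 and -7.07 points. Its difference between genotypes (Prdm16 minus WT) was 0.0 points at a level of 5 CPM, -0.694 with whole gene bodies inside and -0.153 with the start inside. Leaving out each RNA replicate gave 0.0 to 0.709 points. The difference in summed CPM was 2.09 with the libraries grouped as in the authors' table and 2.04 when WT replicate 3 and Prdm16 replicate 1 were left out, both chosen after seeing the data, and -2.57 to 1.85 on leaving out each replicate, with 1.85 without Prdm16 replicate 1. The authors' grouping also turned the share of genes with a count (0.118 points) and the log2 fold changes of Clstn2 (-0.37), Grm7 (-0.44), Rbfox1 (-0.93) and Prdm16 (-0.41). The number of genes of the regions called in the genotype test was 0 under all 13 alternatives, including the fit with replicate number as a block (0). Few of these genes could be tested in most alternatives, so the 0 says little about change. With the authors' grouping 182 of all genes were called, but only 2 genes of the regions were tested. Leaving out a replicate left 1 to 6 to test, while DESeq2 and edgeR without a count filter tested 66. With whole gene bodies inside, 0 genes could be tested. LaminB1 has 1 library per genotype, and depth leaves most genes of the regions at 0 to 9 counts.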

Other observations

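The regions held other annotated genes than the protein-coding ones described above. They contained 227 long noncoding RNA genes, or 3.85 per Mb against 5.11 per Mb over the autosomes, and 0 of the 89 with an entry among the counts had a mean of at least 1 CPM. The share of all autosomal long noncoding RNA genes at that level is not given here. Also in the regions were 9 microRNA genes with 0 counts in every library, among them Mir153, Mir346, Mir488 and Mir551b. Polyadenylated libraries do not measure mature microRNAs.

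Of 156 counted pseudogenes in the regions, 5 had a mean of at least 1 CPM, more than the 1 of 141 protein-coding genes. No share over all autosomal pseudogenes is given beside it. Rbpj-ps3, a copy of the Notch effector gene Rbpj, was at 3.66, 4.25 and 2.72 CPM in WT against 3.67 and 2.74 CPM in Prdm16, by label. Rpl36-ps3, a copy of a ribosomal protein gene, was at 2.44, 3.12 and 2.24 CPM in WT and 2.25 and 2.57 CPM in Prdm16. The groups overlapped for both genes, which were chosen after their values were seen. Reads of a pseudogene and of its parent elsewhere in the genome may not be told apart by the counting. On the sex chromosomes, bins that met the same rule formed 1 stretch of 0.092 Mb, which was not among the 275 regions.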
